A study of Rattus norvegicus with 2 samples.

Results

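The pentose phosphate pathway enzymes examined here are Pgd, Tkt, Taldo1 and Rpia, in the livers of rats given a low-fat or a high-fat diet. They were taken as every probe set whose single gene symbol in the platform annotation is one of these names, which gave 6 of 15866 probe sets, and 4 of 10411 genes with such a symbol. Another 3 probe sets list Pgd among several genes and were left out for that reason. The tissue was liver, as total RNA from SD rats that were 4 weeks old according to the labels and were fed for 9 weeks. Both groups received food based on AIN93G, a purified rodent diet, in a low-fat or a high-fat form, and each group is 1 array. The labels give neither the fat content nor the sex of the rats, nor how many animals each RNA came from. With 1 array per diet there is no replicate check, so no difference below carries an error or a p-value, and each describes these 2 arrays.

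The pathway branches off glycolysis at glucose 6-phosphate. Its oxidative arm makes NADPH in the cytosol and ends in ribulose 5-phosphate, and Pgd, 6-phosphogluconate dehydrogenase, carries out the last of those steps. In the non-oxidative arm Rpia, ribose 5-phosphate isomerase, forms the ribose used for nucleotides, while Tkt, transketolase, and Taldo1, transaldolase, pass carbon units between sugars and return them to glycolysis. In liver the NADPH is drawn on by fatty acid synthesis and by the glutathione and thioredoxin systems.

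Values are signal intensities in arbitrary units. A probe set was taken as measured where its mean log2 signal reached the mean of the floors, the floor of an array being its median signal of 15.7 (low-fat) or 14.0 (high-fat). Log2 ratios are high-fat over low-fat and were centred on the median of the 7864 measured probe sets, which lay at -0.117. Of the 6 member probe sets 4 were measured, 1 for each gene. In bulk tissue, fewer cells of a type and less RNA per cell cannot be told apart.

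Pgd was the lowest of the members on the high-fat array, Tkt was also lower, and Taldo1 and Rpia lay near the centre. None of the 4 measured genes was past 2-fold in either direction. The shares past 2-fold among all 6012 measured genes were 0.848% on the higher side and 0.865% on the lower side, so a count of 0 in 4 is near the background. Of the 4, 3 had a ratio below 0 and 1 above, with a median of -0.26, while 3008 of the 6012 measured genes lay below 0.

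Pgd, on probe set 1371646_at, had a low-fat signal of 109.4 and a high-fat signal of 69.5. Both signals were well over the floors, at 6.97 and 4.96 times them. The centred log2 ratio was -0.54, which is 1.45-fold lower. Among the 787 measured probe sets in the same signal bin, of 10 equal bins, where the ratios had a robust SD of 0.225, 32 (4.07%) had a lower ratio and 55 (6.99%) lay farther from 0 in either direction. Over all measured genes, 384 (6.39%) were as low as Pgd or lower.

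Tkt, on probe set 1386859_at, had signals of 206.9 on the low-fat array and 145.0 with the high-fat diet. These signals were 13.2 and 10.4 times the floors. The log2 ratio was -0.40, or 1.32-fold lower, and 48 of 786 probe sets of similar signal (6.11%) had a lower ratio, while 97 (12.3%) lay farther from 0. The difference between the ratios of Tkt and Pgd was 0.14. The robust SD among probe sets as bright as Tkt was 0.228, which is a spread of single ratios and not of a difference between genes.

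Taldo1, on its single probe set 1369940_at, had a low-fat signal of 289.8 and a high-fat signal of 246.9. Its log2 ratio of -0.11 was well inside the spread, since 469 of the 786 probe sets of similar signal (59.7%) lay farther from 0. Taldo1 acts on products of Tkt, and the ratio of Taldo1 exceeded that of Tkt by 0.28 and that of Pgd by 0.42. Such differences within the arrays do not depend on the centring.

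Rpia was dim, with a low-fat signal of 25 and a high-fat signal of 24.2 on probe set 1389468_at, or 1.59 and 1.73 times the floors. Its log2 ratio was 0.07, and -0.05 without centring, so its direction depends on the scaling. Of 786 probe sets of similar signal, with a robust SD of 0.379, 85.5% lay farther from 0. The ratio of Rpia exceeded that of Pgd by 0.61, that of Tkt by 0.47 and that of Taldo1 by 0.18.

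**Figure D1:**
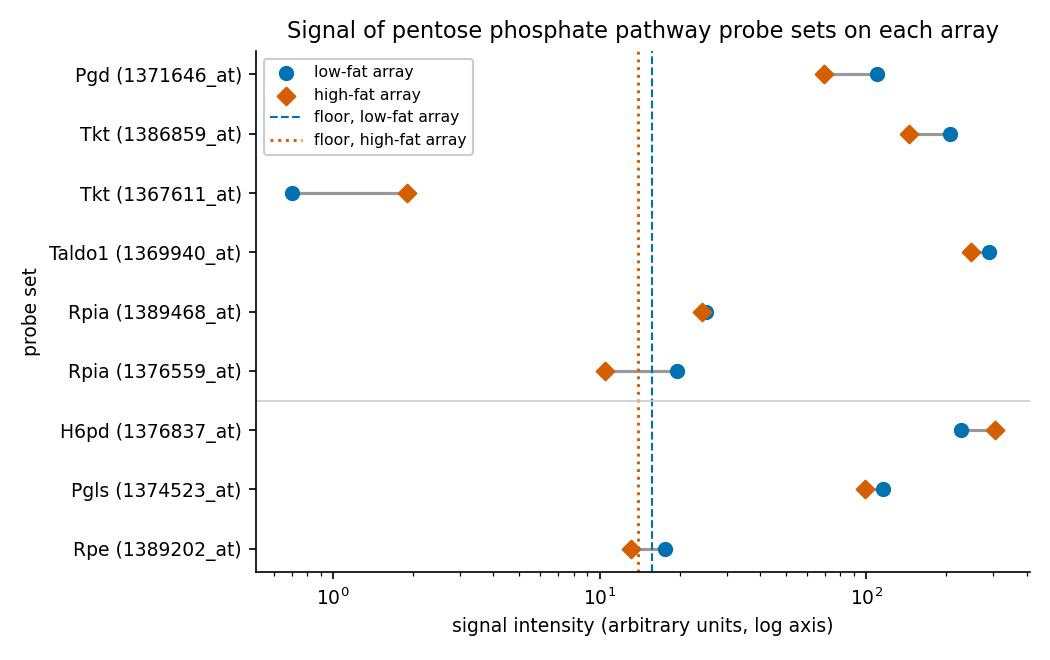
Signal intensity (log axis, arbitrary units) of each pentose phosphate pathway probe set on the low-fat (circles) and high-fat (diamonds) arrays, members above the grey line and other pathway genes below it, with each array's floor as a vertical line. Pgd (109.4 and 69.5) and Tkt (206.9 and 145.0) show the widest gaps among members above both floors, and H6pd runs the other way (227.6 and 303.0).

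Both remaining member probe sets were not measured. The second Rpia probe set, 1376559_at, had a low-fat signal of 19.5 and a high-fat signal of 10.5. Only the low-fat signal was above its floor, so the difference is a bound, at least 1.28-fold lower after centring (a log2 ratio of -0.36 or less), where the brighter Rpia probe set was at 0.07. Its geometric mean signal of 14.3 lay just outside the floors' 14.8, while the closest pathway probe set just inside was that of Rpe at 15.2. The second Tkt probe set, 1367611_at, had signals of 0.7 and 1.9, both far below the floors, and gives no usable ratio.

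In the 696 genes with both of their brightest probe sets measured, the median absolute difference between the log2 ratios was 0.253. Its 75th percentile was 0.441, and the ratios of both probe sets had the same sign in 56.9% of these genes. No member had a second measured probe set to set beside these values, so the value of each member rests on 1 probe set. Rpia and Tkt belong to the 530 genes whose second brightest probe set was not measured, where the median absolute difference was 0.667. Taking dim signals at face value, the second Rpia probe set differed from the first by -0.85, and 41.7% of these genes differed by more.

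**Figure D2:**
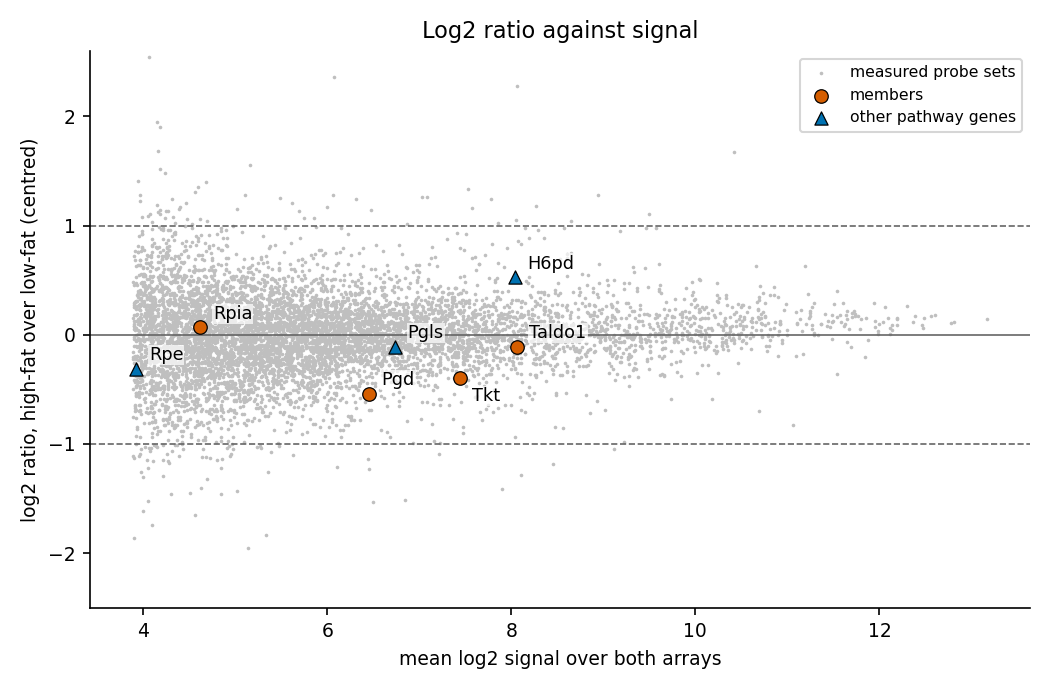
Centred log2 high-fat over low-fat ratio against mean log2 signal for the 7864 measured probe sets (grey), with the members (circles) and other pathway genes (triangles) named and 2-fold marked by dashed lines. The members lie between -0.54 (Pgd) and 0.07 (Rpia), inside the 2-fold lines, in a cloud that narrows as signal rises.

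The rest of the pathway was read from a list of 7 further genes, of which 3 were measured and the others were not analysed here. H6pd, which performs the opening oxidative steps inside the endoplasmic reticulum, was higher on the high-fat array, at 303.0 against a low-fat signal of 227.6. Its log2 ratio was 0.53, and 315 of the 6012 measured genes (5.24%) were as high or higher. The ratio of H6pd exceeded that of Pgd, whose enzyme is cytosolic, by 1.07, a 2.1-fold gap within the arrays. Pgls, the lactonase between the oxidative dehydrogenase steps, had signals of 115.4 and 98.7 and a log2 ratio of -0.11. Rpe, the epimerase that supplies xylulose 5-phosphate to Tkt, went from 17.6 to 13.1, below the high-fat floor, and was at least 1.16-fold lower. Over the 7 measured genes of the pathway, 5 were lower, 2 were higher and none was past 2-fold, with a median log2 ratio of -0.11.

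Genes of the reactions that feed or drain the pentose phosphates were mixed. Of 9 measured, 6 were lower and 3 higher (7 lower without centring), none past 2-fold, with a median log2 ratio of -0.07. The largest ratios belonged to phosphoribosyl pyrophosphate synthetases, which use the ribose 5-phosphate that Rpia makes. Prps2 was at 0.69, with signals of 19.3 (low-fat) and 28.7 (high-fat), and its second probe set, below the low-fat floor at 14.3 and at 19.7 on the high-fat array, was at least 1.36-fold higher. Prps1 was at -0.64 on its brighter probe set (70.7 and 41.7) and at least 1.66-fold higher on the other (15.4, below the floor, and 24), so its direction depends on the probe set. Prpsap1, an associated protein of these synthetases, was at -0.48 (180.4 and 118.9). In the list of purine and pyrimidine synthesis, 4 of 6 measured genes were higher and 2 lower (3 lower without centring), with a median of 0.12, led by Atic at 0.67 (44.7 and 65.6), Adsl at 0.37 (35.7 and 42.5) and Ppat at -0.32 (34 and 25.2). Atic and Adsl act in purine synthesis, and Ppat is its committing step.

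Of the glycolytic genes whose enzymes share sugar phosphates with Tkt and Taldo1, 3 were measured and all 3 were lower, with a median of -0.18. Gpi, the isomerase at the fork between glycolysis and the pathway, was at -0.71 (269.4 and 152.0). Pfkl, a phosphofructokinase subunit, was at -0.18 (31.1 and 25.4), and Tpi1, triose phosphate isomerase, at -0.03 (710.0 and 642.2).

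Other sources of NADPH were lower in 5 of 7 measured genes, and in 6 without centring, with a median of -0.15 and 1 past 2-fold. That was Me1, the cytosolic malic enzyme, at -1.26, from 66.1 to 25.4. The dimmer Me1 probe set had signals of 22.1 and 12.9, the latter under its floor, which bounds the difference at 1.46-fold lower or more. Mthfd1, a cytosolic folate enzyme with an NADP-dependent dehydrogenase activity, was at -0.71, from 379.2 to 213.9, beyond the value of Pgd. Idh2, the mitochondrial isocitrate dehydrogenase, was at -0.32 (229.8 and 170.0), and its cytosolic relative Idh1 at 0.18 (1149.3 and 1198.3), with Idh1 chosen for naming after its value was seen.

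The processes that draw on NADPH were read from 2 lists. All 4 measured genes of fatty acid synthesis were lower, with a median of -1.17 and 2 past 2-fold. Fasn, the synthase that spends the NADPH, had log2 ratios of -0.94 on the brighter and -1.43 on the dimmer probe set, and Acaca and Acly, which make its substrates without using NADPH, were at -1.51 and -1.41. In the glutathione, thioredoxin and Nrf2 target list, 5 of 9 were lower and 4 higher, with 4 to 7 lower over 5 scalings, the median was 0.00, and the values ran from -0.18 to 0.32. Its largest ratios were those of Nqo1 at 0.32 (56.5 and 65.0), Gclm, a subunit of the enzyme that starts glutathione synthesis, at 0.28 (128.3 and 143.8), and Gss, glutathione synthetase, at -0.18 (86.0 and 69.9). Pgd and Tkt, at -0.54 and -0.40, lay below every measured gene of the glutathione list and above every one of the fatty acid synthesis list. The other members, Taldo1 at -0.11 and Rpia at 0.07, lay inside the range of the glutathione list. These lists were not compared by a test, and their genes share the same 2 arrays.

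**Figure D3:**
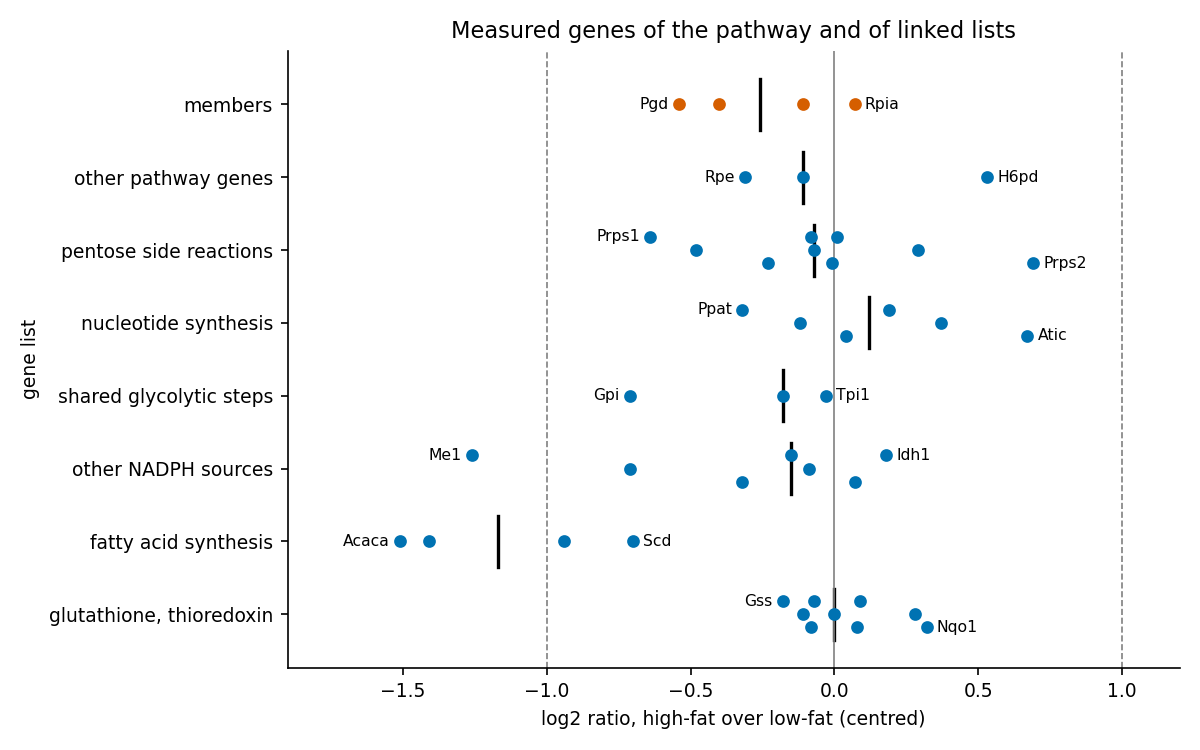
Centred log2 high-fat over low-fat ratio for each measured gene (points) of the members and 7 linked lists, with the list median as a black bar, 2-fold as dashed lines, and the lowest and highest gene of each list named. Members run from Pgd (-0.54) to Rpia (0.07), while the fatty acid synthesis genes lie between -1.51 and -0.70 and the glutathione genes between -0.18 and 0.32.

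Liver markers were bright on both arrays. All 7 measured hepatocyte markers had ratios above 0, but 3 were below 0 without centring and 4 with loess, and their median was 0.14 with summed signals of 30208.3 (low-fat) and 30709.9 (high-fat). Markers of other cells in which the pathway is active were examined beside the members. Macrophage and Kupffer cell markers were higher in 3 of 5 and lower in 2 (3 lower without centring), with a median of 0.10 and summed signals of 871.8 and 727.4. Red cell markers were at 0.08 (Hbb, -0.04 without centring) and 0.19 (Alas2), and no neutrophil marker was measured. Of the adipocyte list 1 of 4 genes on the array was measured, Cfd, at 0.02 (-0.10 without centring). The bile duct marker Epcam was at -0.17 and the endothelial marker Kdr at -0.03, each the only measured gene of its list. The 4 measured stellate cell markers were all lower on the brightest probe set of each, with a median of -0.43 and summed signals over the 7 listed of 402.4 and 294.6. The lowest was Col1a2 (29.9 and 13.2, the latter under its floor), at least 1.97-fold lower. Its second measured probe set was at 0.07 (18.7 and 18.1), and at -0.05 without centring, so the lower value of Col1a2 rests on the brighter probe set. None of these markers was at 0 on an array, and the part of cell composition in the values of Pgd and Tkt was not tested.

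Genes with the signals most like those of each member on the 2 arrays were taken by the distance between their log2 signals. For Pgd these were Ipo7 (104.7 and 71.2) and Fggy (109.8 and 65.9), at distances of 0.0723 and 0.0769. For Tkt they were C2h4orf3 and Apeh, both at a log2 ratio of -0.39. For Taldo1 they were Txn2 and Nherf1, at -0.11 and -0.06, and for Rpia Dcakd and Rabgap1, at 0.05 and 0.08. With 2 arrays many genes share such a pair of signals.

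The processing shifted the members, with Pgd between -0.65 and -0.35, and Rpia was below 0 only without centring. The plot of processing choices shows Pgd, Tkt and Taldo1 lower in each of the 8 treatments of the values. The order of the 4 members was also the same in each. Changes of centring or floor shift all members equally, so they could not alter that order. Quantile normalization, loess and a pseudocount of 50 could. With the pseudocount Pgd and Tkt were close, at -0.35 and -0.34.

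**Figure D4:**
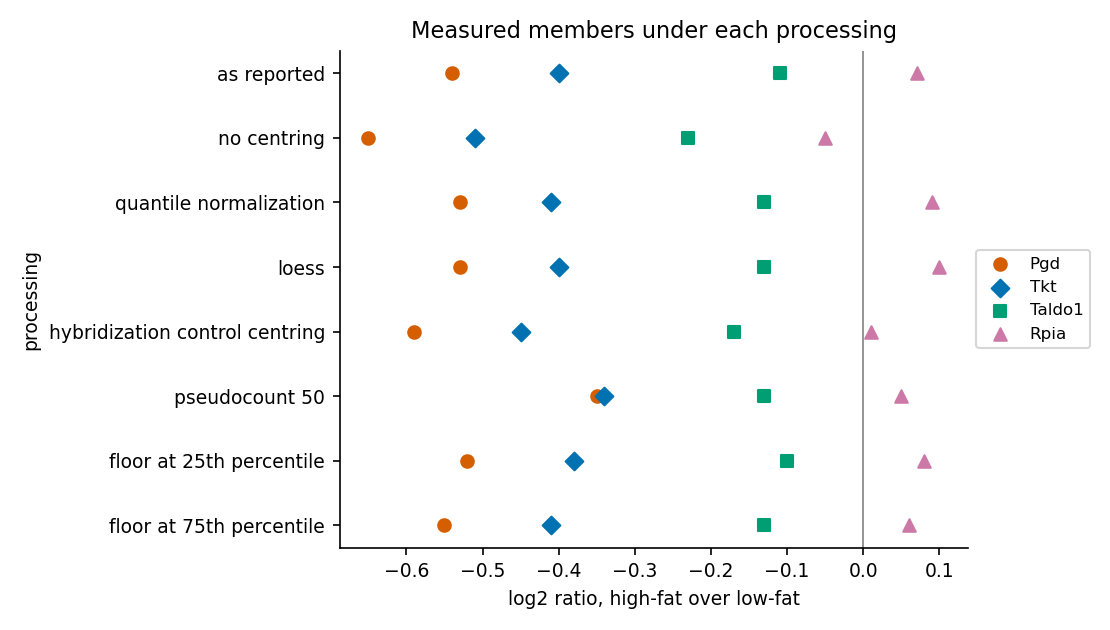
Log2 high-fat over low-fat ratio of the 4 measured members (a symbol for each gene) as reported and under 7 other treatments of the values. Pgd runs from -0.65 to -0.35, Tkt from -0.51 to -0.34 and Taldo1 from -0.23 to -0.10, while Rpia runs from -0.05 to 0.10 and is below 0 only without centring.

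The 250 bases before the annotated start of each member were searched on both strands for 5 motifs, with sequences from RefSeq, build GRCr8. All 4 members were found in that table. None of the 4 windows held the E-box CACGTG, the half-site of carbohydrate response elements, which 5.59% of 33469 promoters hold, or the core TGACNNNGC of the antioxidant response element, held by 10.1%. The windows of Pgd and Taldo1 each held a GC box, GGGCGG (30.5% of promoters), and a CCAAT box, CCAAT (34%, a motif added after the sequences were seen). The GC box began 116 bases before the start in Pgd and 96 before it in Taldo1, and the CCAAT box 31 and 57 bases before it. The Tkt window held a match to the TATA box, TATAAA (12.9% of promoters), on the strand opposite to the gene, 57 bases before the start, and 3 CpG pairs, against 15 in Pgd, 13 in Taldo1, 14 in Rpia and a median of 5 over all promoters. The Rpia window held none of the 5 motifs. The Tkt window lies inside the listed span of that gene, which has more than 1 annotated transcript. Its start need not be the one used in liver. The Rpia window overlaps the listed span of its gene at the end next to its start, so the same limit applies there. These matches are letters in a window, and no binding was measured here. The Pgd window, shown because Pgd had the lowest ratio, is chr5:164882030-164882279 on the minus strand. The Taldo1 window, shown because it held the same pair of motifs with a ratio near 0, is chr1:205922946-205923195 on the plus strand. Both run 5′ to 3′ toward the start, with GC box and CCAAT box matches in capitals (CCAAT appears as its reverse complement ATTGG).
Pgd: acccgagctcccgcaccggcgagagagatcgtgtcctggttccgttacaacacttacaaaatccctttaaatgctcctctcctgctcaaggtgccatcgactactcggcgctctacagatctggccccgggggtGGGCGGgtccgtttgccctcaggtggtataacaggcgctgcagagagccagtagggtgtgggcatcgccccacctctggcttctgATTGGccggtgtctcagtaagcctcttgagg
Taldo1: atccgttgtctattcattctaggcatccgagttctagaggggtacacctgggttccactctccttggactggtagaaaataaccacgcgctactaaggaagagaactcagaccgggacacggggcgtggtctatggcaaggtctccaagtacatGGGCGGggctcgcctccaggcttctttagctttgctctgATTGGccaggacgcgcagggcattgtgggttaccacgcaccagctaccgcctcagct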

How the data were processed

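Total RNA of rat liver was hybridised to 1 oligonucleotide array per diet. The deposited table holds a signal intensity per probe set on a linear scale, with names of Affymetrix form. For these intensities, no background correction, summarisation or scaling by the authors is stated in the labels, and the scale was read from the values. The number of arrays limits the precision. Diets were taken from sample titles.

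After 57 control probe sets were set aside, 15866 remained, 12783 of them with 1 gene symbol in the platform annotation, 312 with several and 2771 unnamed here. Log2 ratios of the deposited intensities were computed without a pseudocount, leaving out 4 probe sets with a 0. The brightest measured probe set stood for a gene in lists, and differences were counted at 2-fold. Ranks used 10 equal bins of mean log2 signal, and a robust SD is the scaled median absolute deviation. Where only 1 array was above its floor, the fold is a bound against the other floor, after centring. Promoters came from RefSeq tables of build GRCr8, and symbols were updated by Entrez identifier through the same assembly's gene table.

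The members, gene lists and rules were chosen with earlier results of these data known. Named genes are every member probe set, every measured gene of the other pathway list, up to 3 measured genes with the largest ratio of each linked list, and the 2 closest genes per member by both log2 signals. Idh1 and single cell type markers were added for context. Alternatives were no centring, quantile normalization, loess (span 0.4), centring on 18 hybridization controls, a pseudocount of 50, floors at the 25th and 75th percentile, no floor, and the median over probe sets. The log2 ratios and their scaling were tested on simulated data, and the motif search on short made-up sequences. The bounds, bins and list summaries were not tested in this way. The software was statsmodels 0.14.6, pandas 2.3.3 and numpy 2.4.6 under Python 3.11.15.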

Additional observations from a re-analysis of the deposited data

How the results depend on the processing

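Pgd, Tkt and Taldo1 stayed below 0, and the 4 measured members inside 2-fold, under the 7 alternatives run on their values, of which both floors were chosen after seeing the data. The dim probe sets moved most: with a pseudocount of 50 the second Rpia probe set was at -0.14 and the second Tkt probe set at 0.10. The median of the 7 measured pathway genes was -0.23 without centring, when 6 of 7 were lower, and it ran from -0.23 to -0.09 over all alternatives run. With the floor at the 75th percentile Rpia and Rpe were not measured and 4 of 5 pathway genes were lower. Counts of genes at least 2-fold higher and lower, 51 and 52 as reported, were 33 and 78 without centring, 4 and 4 with a pseudocount of 50, 244 and 318 with the floor at the 25th percentile, 15 and 10 at the 75th, and 836 and 996 with no floor, where more dim probe sets entered. The median of the glutathione and thioredoxin list was -0.12 without centring. No paired analysis was possible because each diet has 1 array, and no replicate could be left out for the same reason. Signal over background limits Rpia and Rpe, which lie near the floors.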
